A study of Mus musculus with 20 samples.

Results

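NF-kB is a family of dimeric transcription factors that carries signals of cytokine and pattern recognition receptors to the genome. Its subunits are encoded by Nfkb1, Nfkb2, Rel, Rela and Relb. In resting cells the inhibitors of the IkB family hold the dimers in the cytoplasm until a kinase complex marks those inhibitors for destruction, and several inhibitor genes are themselves targets of NF-kB, which closes a feedback loop. In microglia, the resident macrophages of the brain, the pathway is known for driving cytokine and chemokine genes. These 10 genes, the 5 subunit genes above with the inhibitors Nfkbia, Nfkbie, Nfkbid, Nfkbiz and Tnfaip3, were taken as a list of symbols out of the 54838 genes counted, and each symbol matched 1 gene identifier.

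Microglial RNA was sequenced at postnatal day 40, from frontal cortex cells sorted on high CD11b and low CD45, with 1000 cells and 1 library per mouse. The genotype labels are C4-/- (5 libraries), hC4A/- (5), hC4B/- (4), hC4A/A (2) and WT (4), where C4 is a complement component and hC4A and hC4B are its human genes. The labels do not say whether mice with human C4 keep mouse C4, which parental strain was used or which sex the mice were. The design asks what differs in microglia when mouse C4 is absent, when either human gene is present, and when the dose of hC4A is raised.

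Mouse C4b did not follow the names WT and C4-/-: the 16 libraries not labelled WT held 4 to 428 counts each and the 4 WT-labelled ones 0 to 2, so the genotype names used here are those of the labels and every direction against WT rests on them. The WT-labelled libraries also carry deposited library names of a series of their own, so genotype and naming series cannot be told apart. Gene counts ran from 855099 to 2735181 per library, of which the predicted gene Gm10800 took 9.61% to 65.9%. Broad detection, of 27178 to 30907 genes, set 4 libraries apart from the remaining 16, with 11348 to 23912 genes; the broad ones were replicate 2 of hC4A/A, replicate 3 of C4-/- and both replicate 2 and replicate 3 of hC4B/-. All 15 microglia markers on the list examined were detected in every genotype, at a summed 4885 to 13793 CPM (counts scaled to library size by the TMM method) in the 16 other libraries and 9154 to 12224 CPM in the WT-labelled ones. In such bulk samples, fewer cells of a type and less RNA per cell cannot be told apart.

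Promoter sequence was at hand in the RefSeq promoter table (build GRCm38.p6) for 7 of the 10 genes, in 12 windows that run from 250 bases before a transcript start to 50 bases after it. Nfkb1, Relb and Nfkbiz had no entry. The window that holds kB matches of Nfkbid, the only window of Nfkbie, and that of Nfkbia are shown because Nfkbid and Nfkbie had the largest fold changes of the 10 genes between the 16 other libraries and WT, and Nfkbia is the best known feedback inhibitor. Capitals mark matches, on either strand, to the kB consensus of 10 bases. The windows are chr7:30422156-30422455 on the plus strand for Nfkbid, around a transcript start inside the gene, chr17:45555450-45555749 on the plus strand for Nfkbie and chr12:55492598-55492897 on the minus strand for Nfkbia, each written 5′ to 3′ on the gene's own strand.
Nfkbid: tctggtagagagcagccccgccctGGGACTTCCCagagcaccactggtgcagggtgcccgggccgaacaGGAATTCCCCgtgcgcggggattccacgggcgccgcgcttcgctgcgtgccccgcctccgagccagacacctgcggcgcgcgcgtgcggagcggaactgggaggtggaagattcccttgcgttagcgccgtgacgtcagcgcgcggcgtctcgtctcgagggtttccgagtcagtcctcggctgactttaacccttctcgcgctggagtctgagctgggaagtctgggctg
Nfkbie: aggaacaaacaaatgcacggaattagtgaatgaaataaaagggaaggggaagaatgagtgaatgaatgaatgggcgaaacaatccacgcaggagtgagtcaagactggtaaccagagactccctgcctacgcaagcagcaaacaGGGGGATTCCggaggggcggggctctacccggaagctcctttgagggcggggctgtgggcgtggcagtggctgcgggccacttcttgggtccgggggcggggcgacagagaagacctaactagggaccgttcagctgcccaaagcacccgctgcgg
Nfkbia: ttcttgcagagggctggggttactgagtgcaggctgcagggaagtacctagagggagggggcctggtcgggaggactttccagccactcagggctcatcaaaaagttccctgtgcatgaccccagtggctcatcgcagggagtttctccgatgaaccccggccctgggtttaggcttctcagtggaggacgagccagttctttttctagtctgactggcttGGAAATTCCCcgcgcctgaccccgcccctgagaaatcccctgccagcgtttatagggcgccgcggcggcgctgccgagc
The Nfkbid window held a match at bases -226 to -217 and another at -181 to -172 from the transcript start, while its other 2 windows held none. Nfkbie held 1 match, at -106 to -97, and Nfkbia held 1, at -29 to -20. The consensus was found in 8 of the 12 windows and in 6 of the 7 genes with a window, Rela being the exception, against 8.46% of all 32851 windows and 9.55% of all 27025 genes with a window. Of the 8 windows, 2 of Nfkb2 overlap and share a match. Matches in Rel overlapped each other, as did the first pair in Nfkb2. These matches describe the letters in the windows and nothing more.

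The order of the levels per length of exon was led by Nfkbia, which encodes IkB alpha, the inhibitor that NF-kB itself induces. Its median over all 20 libraries was 46.0 CPM per kb. Rel, which encodes the c-Rel subunit found mainly in blood and immune cells, came next with 14.995 CPM per kb. Nfkbia was above Rel in 20 of 20 libraries, and Rel was above Rela in 16 of 20. The order of Nfkbia and Rel rests on the division by exon length. In counts over all 20 libraries, Rel had 5265 and Nfkbia 3006. Rela, which encodes the main transactivating subunit, had 4.29 CPM per kb and Nfkb1, whose precursor protein is processed to its DNA-binding partner, had 3.42 CPM per kb. Below them stood Nfkbid with 2.40, Nfkbie with 1.99, Nfkbiz with 1.87, Relb with 1.59 and Tnfaip3 with 1.09 CPM per kb, and Nfkb2 was last with 0.394 CPM per kb. From Rela down, each gene was above the next in only 7 to 14 of the 20 libraries, so these neighbours were not set apart beyond their spread. Gm43430 lies within Nfkb1 on the same strand, and Nfkb2 overlaps Psd, which lies on the opposite strand, in counts that ignore strand. Reads that could belong to more than 1 counted gene were set aside as ambiguous, so these overlaps can only take reads away from Nfkb1 and Nfkb2. A further gene, AC114539.1, lies on the opposite strand across the start of Nfkb2 and is absent from the genes counted. Any reads of it over Nfkb2 exons would be counted for Nfkb2.

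**Figure D1:**
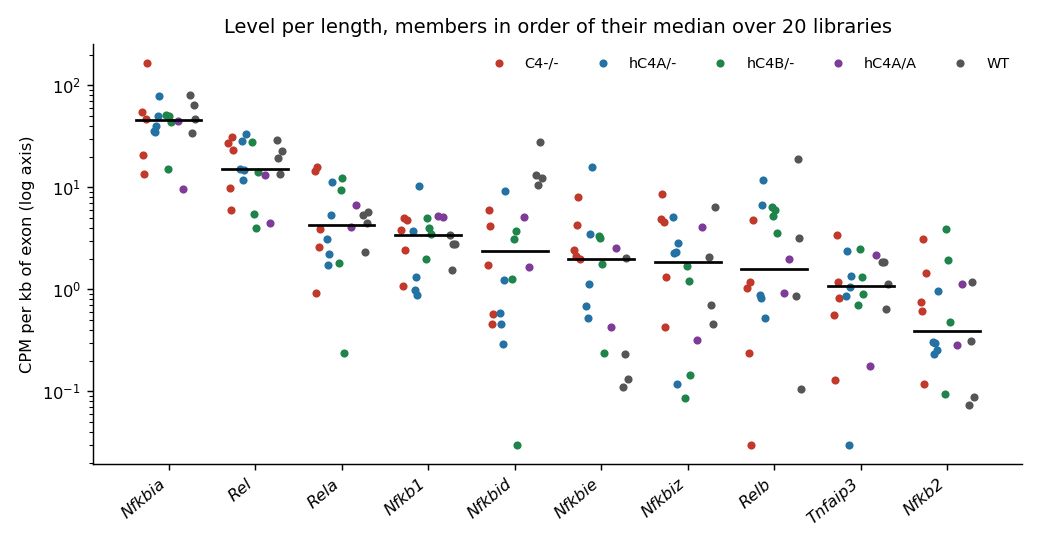
Level of each gene in CPM per kb of exon on a log axis, 1 point per library, coloured by genotype label, with a bar at the median over 20 libraries; libraries without a count are drawn near the bottom. Nfkbia lies highest with a median of 46.0 and Rel next with 14.995, while the genes from Rela to Nfkb2 overlap their neighbours.

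Tests were run over all 12680 genes that passed the filter on low counts, which all 10 genes did. A gene passed at a Benjamini-Hochberg adjusted p under 0.05 in edgeR's quasi-likelihood test. None of the 10 passed in any of the 10 comparisons between genotypes, by edgeR or, as alternatives, by DESeq2 or limma voom. At an unadjusted p under 0.05, edgeR gave 2 of the 10 genes in C4-/- against WT (8.55% of all genes), 2 in hC4A/- against WT (7.51%), 1 in hC4B/- against WT (13.1%), 2 in the 16 other libraries together against WT (9.33%) and 1 in hC4B/- against C4-/- (4.52%). It gave 0 of the 10 in hC4A/A against WT (8.41%), hC4A/- against C4-/- (10.7%), hC4A/A against C4-/- (2.17%), hC4A/- against hC4B/- (16.7%) and hC4A/A against hC4A/- (11.5%). By DESeq2 that count was 3 in hC4B/- against WT and 1 in hC4A/- against hC4B/-, and otherwise as by edgeR, as it was in all comparisons by voom. The share of all genes that passed the adjusted threshold was 0.221% in the 16 other libraries against WT, where 28 genes passed, and 0% in each of the other 9 comparisons. The comparisons against WT share the 4 WT-labelled libraries, so their values for a gene are not independent of each other. The pooled comparison of the 16 other libraries was chosen with earlier results of these data known, so its p-values and ranks are descriptive.

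**Figure D2:**
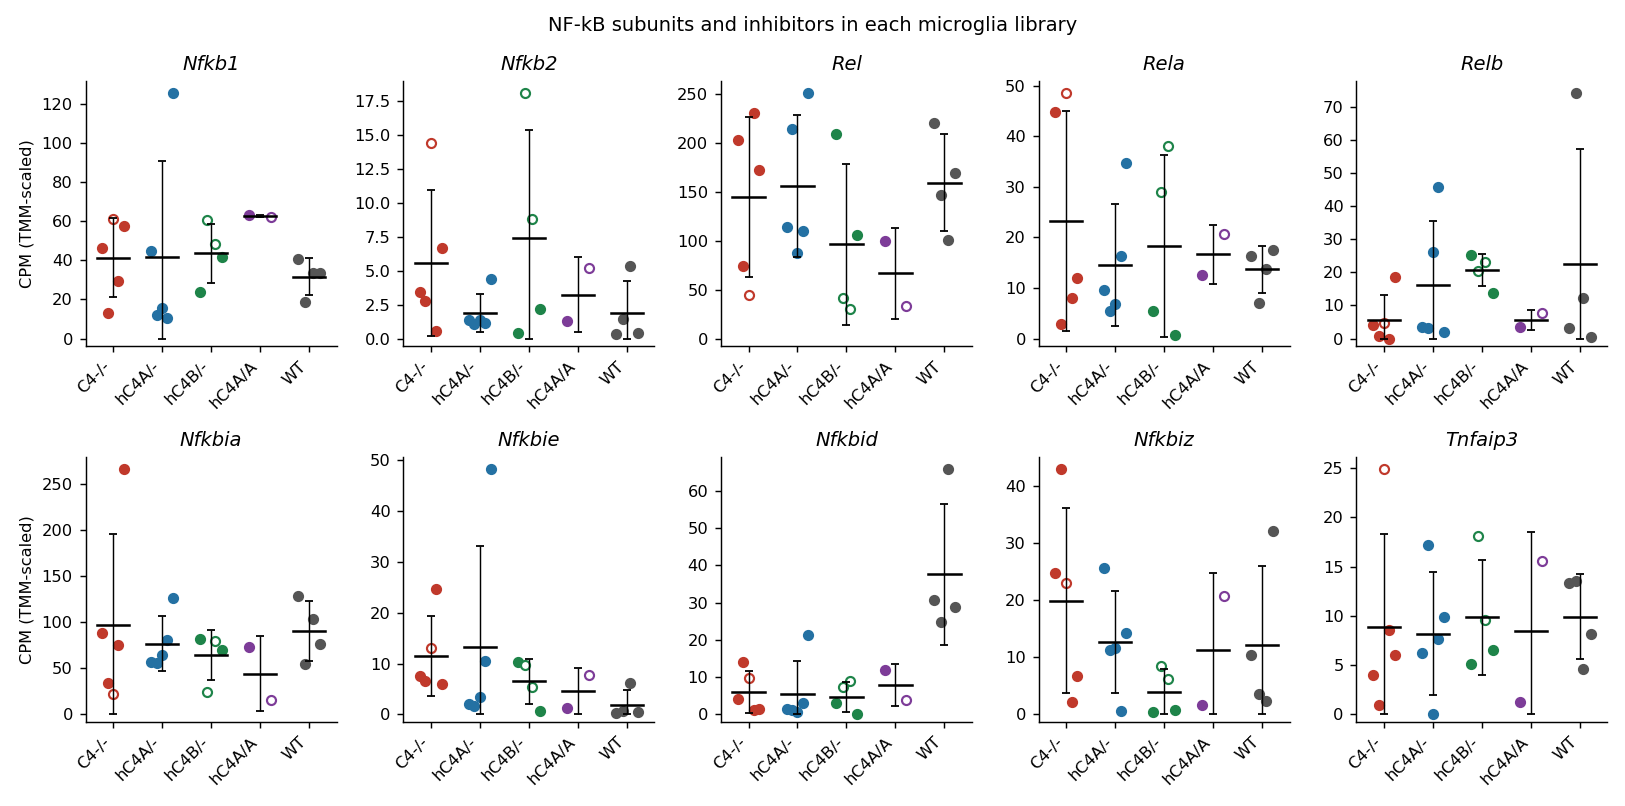
CPM of each gene in every library by genotype label, with the mean as a horizontal bar and the SD as a vertical one, cut at 0; open circles are the 4 broad libraries. The 4 WT-labelled libraries lie between 24.9 and 65.9 CPM for Nfkbid, above all 16 others.

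Between the 16 other libraries together and WT, Nfkbid and Nfkbie had the largest fold changes of the 10 genes, on opposite sides. Nfkbid was the larger in size with TMM scaling, while Nfkbie was the larger with RLE scaling (2.56 against -2.53 for Nfkbid), by DESeq2 (2.62 against -2.54) and without WT replicate 3 (4.13 against -2.28) or hC4B/- replicate 4 (2.59 against -2.58). Without WT replicate 3, Nfkb2 at 2.44 was also larger in size than Nfkbid. Nfkbid encodes IkBNS, an atypical inhibitor that acts in the nucleus and in mouse macrophages is known for limiting late cytokine genes such as Il6. Its gene lies on chromosome 7 of GRCm38, 30421732 to 30428746, on the plus strand (ENSMUSG00000036931). Nfkbid had 4.03, 13.99, 9.83, 1.07 and 1.33 CPM in C4-/- libraries, 1.38, 1.07, 0.687, 2.93 and 21.4 CPM in hC4A/- libraries, 2.99, 7.24, 8.85 and 0 CPM in hC4B/- libraries and 11.9 and 3.89 CPM in hC4A/A libraries. In the WT-labelled libraries it had 30.7, 24.9, 65.9 and 28.8 CPM. Every one of the 16 other libraries was thus below the lowest WT-labelled one, with hC4A/- replicate 5 nearest to it. Of all genes tested, 13 (0.103%) were lower in this way without overlap. The hC4B/- library with no Nfkbid count allows up to 2.19 CPM, the value of 3 counts there.

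Mean Nfkbid was 6.05 ± 5.67 CPM for C4-/- (SD, n = 5), 5.50 ± 8.95 CPM for hC4A/- (n = 5), 4.77 ± 4.03 CPM for hC4B/- (n = 4), 7.91 ± 5.69 CPM for hC4A/A (n = 2) and 37.6 ± 19.04 in WT (n = 4). Against WT, C4-/- had a log2 fold change of -2.64 ± 1.06 (SE), hC4A/- of -2.72 ± 1.06, hC4B/- of -2.98 ± 1.18 and hC4A/A of -2.20 ± 1.48. By edgeR the adjusted p was 0.529, 0.502, 0.350 and 0.686 for these 4 comparisons in that order. Each library of each of these genotypes lay below the lowest WT-labelled one, which held for 0.521%, 0.797%, 2.26% and 3.79% of genes in the same order. Taking all 16 libraries together, Nfkbid averaged 5.79 ± 6.02 CPM against 37.6 ± 19.04 in WT, a log2 fold change of -2.69 ± 0.75. The unadjusted p was 0.0011, rank 81 of 12680, and edgeR's adjusted p of 0.174 missed the threshold. The threshold was passed only with no filter on low counts, at a log2 fold change of -2.95 and an adjusted p of 0.0136, while over all settings the adjusted p ran to 0.476 and the fold change stayed between -3.20 and -2.28. The lack of overlap held under TMM and RLE scaling and with Gm10800 left out of the library total, but under the plain library total hC4A/- replicate 5 with 23.0 CPM lay above WT replicate 2 with 20.4 CPM. Without hC4A/- replicate 5 the hC4A/- fold change was -4.36, without the broad libraries that of hC4B/- was -4.40, and without hC4A/A replicate 2 that of hC4A/A was -1.61.

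Within a library, the place of Nfkbid among the 10 genes moved in the same direction, with overlap. It made up a median of 0.980% of the counts of the 10 genes in the 16 other libraries, range 0% to 7.32%, against a median of 7.54% and a range of 6.61% to 18.9% in WT. The share of the 10-gene counts does not depend on library scaling, and by this measure the ranges overlapped. Ratios per length of exon overlapped too. That of Nfkbid to Rel was 0.444 to 2.09 in WT and reached 0.702 in C4-/- and 0.940 in hC4B/-, but only 0.272 in hC4A/- and 0.381 in hC4A/A. That of Nfkbid to Nfkbia was 0.163 to 0.437 in WT. It reached 0.312 in C4-/-, 0.206 in hC4B/- and 0.172 in hC4A/A, but only 0.116 in hC4A/-. The counts of the 10 genes together were 149 to 1875 per library in the 16 others and 454 to 1392 in WT. Genes next to Nfkbid were set beside it, as a check on its place in the genome. Tyrobp, an adaptor of microglial receptors, averaged 320.4 ± 175 CPM in the 16 others and 286 ± 97.2 in WT, a log2 fold change of 0.13 ± 0.58. Hcst, another signalling adaptor, averaged 14.9 ± 14.9 CPM in the 16 others and 21.6 ± 14.1 in WT, at -0.64 ± 0.78 (edgeR adjusted p = 0.801). Aplp1, also looked at, had 0 to 10 counts in the 16 others and 1 count in each WT-labelled library. It did not pass the filter on low counts and was not tested.

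Nfkbie stood on the opposite side. It encodes IkB epsilon, a cytoplasmic inhibitor that holds dimers with Rel or Rela, and lies on chromosome 17, 45555703 to 45563169, on the plus strand (ENSMUSG00000023947). It had 7.48, 6.53, 13.1, 24.7 and 5.99 CPM in C4-/- libraries, 2.07, 1.61, 3.43, 10.5 and 48.3 CPM in hC4A/- libraries, 10.3, 9.65, 5.44 and 0.731 CPM in hC4B/- libraries and 1.29 and 7.77 CPM in hC4A/A libraries. The WT-labelled libraries had 0.334, 0.712, 6.13 and 0.406 CPM, which are 1, 1, 8 and 1 counts. All 16 others were above the WT median and 9 were above the highest WT-labelled library, WT replicate 3, so the groups overlapped. The lowest of the 16, hC4B/- replicate 4 at 0.731 CPM, held 1 count, as did WT replicates 1, 2 and 4. It stood above those only through the scaling to library size.

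Mean Nfkbie was 9.93 ± 11.8 CPM in the 16 other libraries (SD) and 1.90 ± 2.83 CPM in WT (n = 4). The pooled log2 fold change was 2.33 ± 1.10, with an unadjusted p of 0.042 and an edgeR adjusted p of 0.519. By genotype, C4-/- had 2.66 ± 1.21, hC4A/- 2.85 ± 1.22, hC4B/- 1.83 ± 1.23 and hC4A/A 1.23 ± 1.46, with edgeR adjusted p of 0.566, 0.584, 0.490 and 0.835. The hC4A/A value turned to -0.42 without hC4A/A replicate 2 and to -0.31 without the broad libraries. Without WT replicate 3 the pooled value was 4.13 and those by genotype were 3.03 to 4.65, and without hC4A/- replicate 5 the hC4A/- value was 1.63. At 11 counts in the 4 WT-labelled libraries together, the size of this difference is poorly fixed.

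**Figure D3:**
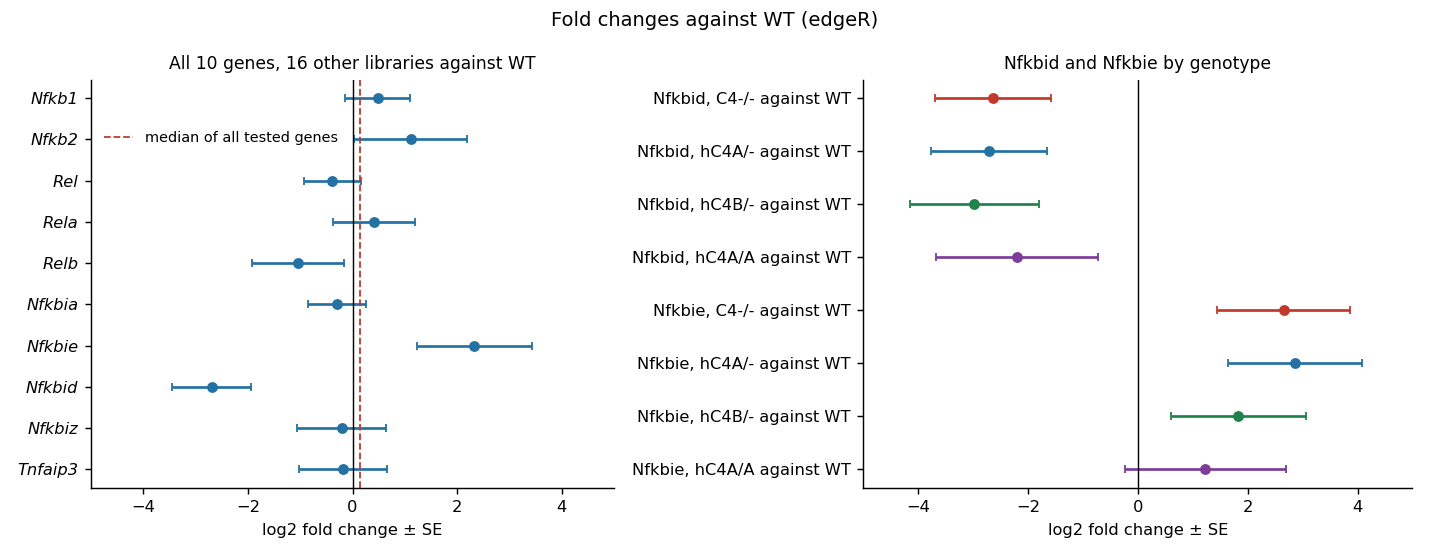
Log2 fold change with its SE from edgeR for all 10 genes in the 16 other libraries against WT (left, with the median of all tested genes as a dashed line) and for Nfkbid and Nfkbie by genotype label (right). Nfkbid lies at -2.69 and Nfkbie at 2.33 in the pooled comparison, and the other genes lie between -1.04 and 1.11.

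Among the subunit genes, Rel lies on chromosome 11 (23736847 to 23770970, minus strand), Rela on chromosome 19 (5637483 to 5648130, plus strand) and Nfkb1 on chromosome 3 (135584655 to 135691547, minus strand). Rel had 29.9 to 251 CPM in the 16 other libraries and 100.4 to 220.0 CPM in WT, and Rela had 0.731 to 48.5 and 7.12 to 17.5 CPM. For both genes the range over the 16 other libraries enclosed that of WT. The pooled log2 fold change was -0.39 ± 0.55 for Rel and 0.40 ± 0.79 for Rela. Rela turned to -0.32 without the 4 broad libraries, 3 of which held the highest values of their genotypes. Nfkb1 averaged 44.6 ± 28.9 CPM in the 16 others and 31.6 ± 9.35 CPM in WT, at a log2 fold change of 0.48 ± 0.62. With TMM scaling, both hC4A/A libraries, with 62.9 and 62.2 CPM, were above all WT-labelled and all C4-/- libraries for Nfkb1. The same held for 7.41% and 2.89% of genes, against WT and C4-/- in that order. For Nfkb1 the gap to C4-/- replicate 3 was narrow. That library lay above both hC4A/A libraries under the plain library total, with or without Gm10800, so hC4A/A and C4-/- overlapped there. In the same hC4A/A libraries Rel, with 99.6 and 33.7 CPM, was below all WT-labelled ones, as was Nfkbid. With TMM scaling that makes 2 of the 10 genes, where 3.79% of all genes lay so. For Rel the gap was narrow, as WT replicate 3 held 100.4 CPM. Under the plain library total, with or without Gm10800, hC4A/A replicate 1 lay above WT replicate 3 for Rel, so the groups overlapped. None of these comparisons passed the test, and n was 2 in hC4A/A.

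Relb and Nfkb2 encode the subunits of the alternative NF-kB pathway, in which receptors such as the lymphotoxin receptor lead to processing of the Nfkb2 product. Relb lies on chromosome 7 (19606217 to 19629438, minus strand) and Nfkb2 on chromosome 19 (46304320 to 46312385, plus strand). Relb had 4.03, 0.932, 4.59, 0 and 18.6 CPM in C4-/- libraries, 3.45, 3.22, 26.1, 45.6 and 2.04 CPM in hC4A/-, 25.2, 20.5, 23.1 and 13.9 CPM in hC4B/-, 3.55 and 7.77 CPM in hC4A/A and 3.34, 74.0, 12.3 and 0.406 CPM in WT. The hC4B/- libraries were the most even, and the WT-labelled ones spanned the full range of all 20 but for 1 library with no count, which allows up to 1.61 CPM. In the pooled comparison the log2 fold change was -1.04 ± 0.88, and it turned to 1.27 without WT replicate 2. Between hC4B/- and C4-/-, Relb averaged 20.7 ± 4.92 CPM against 5.64 ± 7.53 CPM, a difference of 1.86 ± 1.15 on the log2 scale (adjusted p = 0.990 by edgeR) with C4-/- replicate 5 inside the hC4B/- range; without that library the difference was 3.07. Nfkb2 was at 1 to 22 counts in every library, 0.427 to 18.1 CPM in the 16 others and 0.334 to 5.37 CPM in WT, at a log2 fold change of 1.11 ± 1.08. That value was 2.44 without WT replicate 3 and 0.28 without the broad libraries.

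Nfkbia lies on chromosome 12 (55489410 to 55492647, minus strand). It was at 15.5 to 267 CPM in the 16 other libraries and at 54.8 to 129 CPM in WT, and its pooled log2 fold change was -0.30 ± 0.56. C4-/- replicate 5 held the highest value and hC4A/A replicate 2, a broad library, the lowest. Nfkbiz encodes IkB zeta, a nuclear inhibitor family member that in mouse macrophages is known as an inducible cofactor for secondary response genes, and lies on chromosome 16 (55811375 to 55838899, minus strand). It had 24.7, 42.9, 22.9, 2.15 and 6.65 CPM in C4-/- libraries, 25.5, 11.3, 11.7, 0.585 and 14.3 CPM in hC4A/-, 0.427, 8.44, 6.13 and 0.731 CPM in hC4B/-, 1.61 and 20.7 CPM in hC4A/A and 10.3, 3.56, 2.30 and 32.1 CPM in WT. The hC4B/- libraries were low and the C4-/- ones mostly high, with overlap. The log2 fold change of hC4B/- against C4-/- was -2.37 ± 1.15, with means of 3.93 ± 3.99 and 19.9 ± 16.2 CPM, an unadjusted p of 0.048 and an edgeR adjusted p of 0.990. Without the 4 broad libraries it was -4.65.

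Tnfaip3 encodes a ubiquitin-editing enzyme that switches off signalling upstream of the kinase complex, and lies on chromosome 10 (19000910 to 19015657, minus strand). It had 0 to 24.9 CPM in the 16 other libraries and 4.60 to 13.5 CPM in WT, and means of 8.84 ± 6.91 and 9.90 ± 4.33 CPM. Its pooled log2 fold change was -0.18 ± 0.84, and that of Nfkbiz was -0.21 ± 0.85. The hC4A/- library with no Tnfaip3 count allows up to 2.06 CPM. Of the 10 genes, 6 had a pooled log2 fold change below 0, of which Nfkbiz and Tnfaip3 turned above 0 with RLE scaling and by DESeq2 and Relb by limma voom. The median of the 10 was -0.19, while 44.8% of all tested genes were below 0, with a median of 0.15.

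Among the 16 libraries that are not broad, the levels of the 10 genes went little with each other. Over the 45 pairs of these genes, Spearman's rho of log2 CPM had a median of 0.09 and ran from -0.52 for Relb and Nfkbiz to 0.69 for Rel and Tnfaip3. The tested genes with the pattern most like that of Nfkbid were Zfp318 (rho 0.86) and Atg7 (0.83). For Nfkbie they were Ttc9c (0.86) and Gas8 (0.83), for Nfkbia Rplp1 (0.94) and Rpl36a (0.93), and for Rel Rcan3 (0.90) and Yaf2 (0.87). For Nfkb1 they were Dedd (0.89) and Fanca (0.89), for Nfkb2 Proser3 (0.85) and R3hdm2 (0.85), for Rela Cd2bp2 (0.87) and Zfp36 (0.85), and for Relb Prps2 (0.79) and Hdac9 (0.76). For Nfkbiz they were Uap1 (0.86) and Sept6 (0.75), and for Tnfaip3 Mis12 (0.79) and 2810454H06Rik (0.79). These are the highest of 12680 values over 16 libraries that share depth differences, and are given as a description.

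The remaining genes of the pathway were described by lists for the same pooled comparison. Of 10 other regulators 7 were tested, and 0 passed by edgeR, with 1 lower and 1 higher at an unadjusted p under 0.05 (4.85% and 4.48% of all tested genes). The lower one, Nfkbib, encodes IkB beta and averaged 13.04 ± 19.6 CPM in the 16 others and 41.6 ± 49.9 CPM in WT, at a log2 fold change of -1.86 ± 0.77. The higher one, Traf1, a receptor-associated signalling protein, was listed at 0 in all WT-labelled libraries and reached 18.1 CPM elsewhere. Traf1 thus passed the filter on low counts only through the other libraries and could only come out as higher. Tnip1, a partner of the Tnfaip3 product, had a log2 fold change of 2.08 ± 1.17 on 7 counts in WT. Of the kinase complex and the kinases above it 9 of 10 were tested and 0 passed, also at an unadjusted p under 0.05. The smallest p values there were those of Map3k7 (1.84 ± 1.11), Ikbkb (0.99 ± 0.67) and Tab1 (1.21 ± 1.09), the first encoding the kinase TAK1 and the second a catalytic subunit of the complex. Receptors and adaptors had 14 of 17 tested with 0 passing at either threshold, led by Ltbr at 1.75 ± 1.00, Traf2 at 1.48 ± 1.12 and Il1rap at 1.67 ± 1.46. Of the ligands 3 of 8 were tested and 0 passed at either threshold, and the cytokine gene Il1a was at 2.01 ± 1.08, Tnfsf13b at 2.90 ± 1.64 and Il18 at -0.29 ± 0.66. Median log2 fold changes of these lists were -0.12 for other regulators, 0.68 for kinases, -0.14 for receptors and adaptors and 2.01 for ligands, beside 0.15 for all tested genes.

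Target genes of NF-kB had 14 of 22 tested, and 1 passed, as lower, where 0.221% of all tested genes passed. That gene, Ccl2, encodes a chemokine that draws in monocytes, and stood at -3.72 ± 0.60 on the log2 scale (adjusted p = 0.0082 by edgeR). Ccl2 lay at 0.731 to 80.3 CPM in the 16 other libraries and at 130.3 to 276 CPM in WT, without overlap. Of all tested genes, 0.103% were lower in this way. Of the 14, 10 were below 0, with a median of -0.65, beside 44.8% of all tested genes below 0 and a median of 0.15. Il6, an inflammatory cytokine gene, averaged 17.7 ± 30.6 CPM in the 16 others and 33.5 ± 60.0 in WT, at a log2 fold change of -1.84 ± 0.86 with overlapping groups. Icam1, an adhesion molecule gene, averaged 21.4 ± 15.3 and 43.8 ± 7.21 CPM, at -1.05 ± 0.62. When the 4 genotypes were given equal weight in the pooled comparison, a choice made after seeing the data, 0 of all genes passed in place of 28, Ccl2 included.

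**Figure D4:**
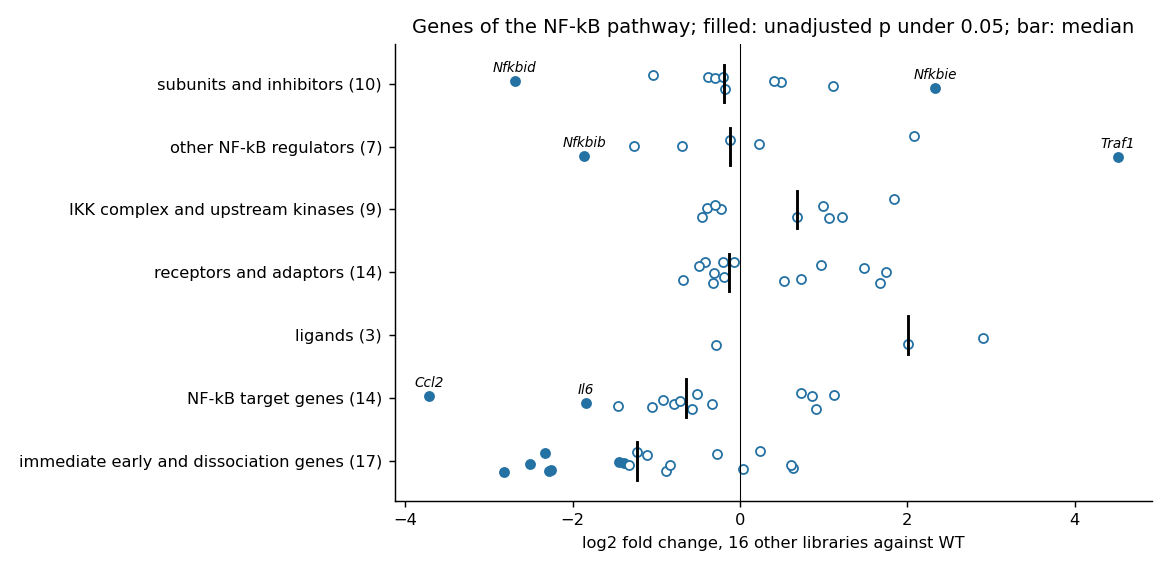
Log2 fold change of each tested gene in the 16 other libraries against WT, by list, with the number tested in brackets, filled points for an unadjusted p under 0.05 and a bar at the median. Ccl2 lies lowest among the target genes at -3.72, and Traf1, with no count in WT, has a fitted value that is no measured size.

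Genes of tissue handling and of other cell types were set beside these values for the same pooled comparison. Of the immediate early and dissociation list, which holds genes that tissue handling is known to raise, 17 of 21 were tested and 0 passed by edgeR. At an unadjusted p under 0.05, 7 were lower and 0 higher, beside 4.85% and 4.48% of all tested genes. Of the 17, 13 were below 0, with a median of -1.23, beside 44.8% and a median of 0.15 for all tested genes. Rgs1 was at -2.34 ± 0.62, Fos at -2.28 ± 0.67 and Atf3 at -2.82 ± 0.98 on the log2 scale. The sum of the list was 189 to 1989 CPM in the 16 others and 1166 to 1719 CPM in WT, so it overlapped. The library hC4A/- replicate 5, which had the highest Nfkbid outside WT, held the highest sum. Other libraries went the other way. WT replicate 3, with the highest Nfkbid at 65.9 CPM, held the lowest WT sum. Sums of 1576 CPM in hC4B/- replicate 1 and 1298 CPM in hC4A/- replicate 4 stood beside 2.99 and 2.93 CPM of Nfkbid. Of 10 neutrophil markers 8 were tested, and 1 passed, as lower, where 0.221% of all tested genes passed. That was Mmp8, a collagenase gene, at -6.57 ± 1.14 (edgeR adjusted p = 0.0136). It had 0 to 1.30 CPM in the 16 others and 8.34, 69.0, 0 and 0 CPM in the WT-labelled libraries. Mmp8 thus passed the filter on low counts only through WT replicates 1 and 2 and could only come out as lower. Its call describes those 2 libraries. How far the filter shaped the values of the other neutrophil markers was not tested. Ngp was at -3.45 ± 0.94 and Lcn2 at -3.27 ± 0.95, and all 8 were below 0, with a median of -3.23, where 44.8% of all tested genes were below 0. The neutrophil sum was 0 to 177 CPM in the 16 others and 127, 1423, 202 and 99.1 CPM in WT replicates 1 to 4, and Mpo was at 0 in WT. WT replicate 2, with the highest neutrophil sum, had the lowest Nfkbid of the WT-labelled libraries, and hC4A/- replicate 5 had a neutrophil sum of 1.70 CPM. The part of either list in the Nfkbid values was not tested. The 15 microglia markers had 0 passing and a median of -0.01, and in the other 6 marker lists, namely erythroid, endothelial and mural, astrocyte and oligodendrocyte, neuron, lymphocyte, and monocyte and border macrophage markers, 2, 7, 7, 2, 0 and 2 genes were tested and 0 passed. Their median log2 fold changes were -1.33 for erythroid, 1.54 for endothelial and mural, 0.11 for astrocyte and oligodendrocyte, 1.26 for neuron, and 0.25 for monocyte and border macrophage markers. At an unadjusted p under 0.05 the endothelial and mural list had Pecam1 lower (-2.24 ± 0.65) and Cspg4 higher (3.81 ± 1.45), and the other lists had none.

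**Figure D5:**
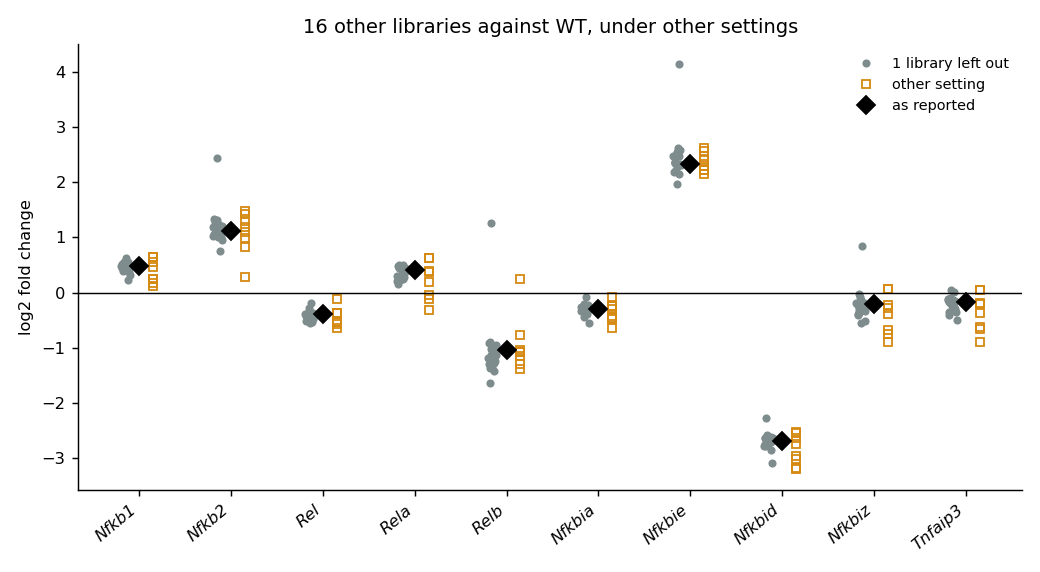
Log2 fold change of each gene in the 16 other libraries against WT as reported (black diamond), with 1 library left out (grey circles) and under other settings (open squares). Nfkbid stays between -3.20 and -2.28 and Nfkbie between 1.96 and 4.13, while Relb runs from -1.63 to 1.27.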

How the data were processed

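The values are unnormalised read counts for each gene in 1 deposited file per library, laid out as STAR writes them, of which the unstranded count column was taken. The submitters' processing notes name STAR, edgeR and GRCm38. Their versions and the annotation are not given in the sources used for this work. Symbols and exon lengths came from GENCODE release M21. Unmapped, multimapping, featureless and ambiguous reads (14.8% to 42.1%, 13.2% to 28.9%, 21.8% to 42.1% and 0.897% to 5.86% of reads per library) stayed out of library sizes and tests. Not used were 40 stranded columns and 20 columns of per-sample values in a table of the whole series. Groups and replicate numbers come from the sample titles. Per the labels' protocol each of the 20 libraries is 1 mouse. P-values thus measure the spread between mice together with that from sorting and library preparation. With 1 library per mouse these cannot be separated. No pair of libraries within a genotype was a copy, since their counts differed by 26.3 to 142 times the chi-square per degree of freedom that sampling noise would give.

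All 20 libraries entered 1 edgeR 4.0.16 quasi-likelihood model in R 4.3.3 (robust, TMM scaling, filterByExpr by genotype with a minimum count of 10, 12680 genes, 15 residual degrees of freedom, common dispersion 1.07). P-values were adjusted over all genes at a threshold of 0.05. The pooled comparison weights the 4 other genotypes by their number of libraries. CPM is scaled by TMM factors, SD is over libraries, and the SE is the log2 fold change divided by the square root of F. A count of 0 allows up to 3 counts, which covers counting error only, as the reads carry no molecular identifiers. The steps were tested on simulated data. Alternatives were RLE scaling, no count filter, DESeq2 1.42.0, limma 3.58.1 voom, a replicate block, leaving out the broad libraries (over 27000 genes detected), Gm10800 or each library, fits on the compared groups alone and, added after seeing the data, equal genotype weights. The members, the lists and the pooled comparison were chosen with earlier results of these data known. All 10 members are named, and of each list at most 3 tested genes with the smallest unadjusted p in the pooled comparison, plus for each member the 2 tested genes with the highest Spearman correlation of log2 CPM (prior count 2).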

Additional observations from a re-analysis of the deposited data

Results flagged for a closer look

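In 8 of 40 sets of values, each the 4 or 5 libraries of 1 genotype for 1 of the 10 genes, 1 library lay far from the others by Dixon's ratio at its 95% critical value; chance flags about 1 such set in 20 where values are normally distributed, and the rate for CPM values such as these was not tested. None of the 8 was a broad library. The hC4A/- replicate 5 library stood apart in 3 of them: Nfkbid was 21.4 CPM there against 0.687 to 2.93 CPM in the other hC4A/- libraries, Nfkbie was 48.3 CPM against 1.61 to 10.5 CPM, and Nfkb2 was 4.42 CPM against 1.07 to 1.38 CPM. In the C4-/- replicate 5 library, Nfkbia was 267 CPM against 21.6 to 88.6 CPM in the other C4-/- libraries and Relb was 18.6 CPM against 0 to 4.59 CPM. Among the WT-labelled libraries, replicate 3 held 65.9 CPM of Nfkbid against 24.9 to 30.7 CPM and 6.13 CPM of Nfkbie against 0.334 to 0.712 CPM, and replicate 2 held 74.0 CPM of Relb against 0.406 to 12.3 CPM.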

How the results depend on the processing

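The 20 fold changes printed for the 10 genes were recomputed to 557 values under other settings, of which 14 had the opposite sign and 1 passed the threshold. The count of the 10 genes passing was 0 in every comparison and setting, except 1 in the 16 other libraries against WT with no count filter (Nfkbid, -2.95). The signs that turned in that comparison were those of Rela (-0.035 with no count filter, -0.12 by limma voom, -0.32 without the broad libraries), Relb (0.25 by voom), Nfkbiz (0.070 with RLE, 0.073 by DESeq2) and Tnfaip3 (0.049 with RLE, 0.046 by DESeq2). Nfkbie in hC4A/A against WT was -0.31 without the broad libraries. Leaving out 1 library gave -1.63 to 1.27 for Relb, -0.54 to 0.84 for Nfkbiz, -0.50 to 0.054 for Tnfaip3 (0.0088 without WT replicate 1) and -0.42 to 3.03 for Nfkbie in hC4A/A against WT. The cause was not tested. The median of all tested genes in the pooled comparison was 0.30 with RLE and 0.15 with TMM.

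Deviations of same-numbered libraries from their genotype means had a median correlation of 0.01, with 5 of 33 pairs over 0.1. For different numbers the median was -0.0014, with 12 of 124 pairs over 0.1. The highest correlation was 0.70 for same and 0.71 for different numbers. With the replicate number as a block, the Nfkbid fold change in the pooled comparison was -3.18 (edgeR adjusted p = 0.344). There 0 of the 10 genes passed, and 3 of all genes passed in place of 28. The 28 became 13 with RLE, 343 with no count filter, 3 by voom, 12 without the broad libraries, 45 without Gm10800, 0 with equal weights and 8 to 91 with 1 library left out (8 without WT replicate 3, 14 without WT replicate 2, 17 without hC4A/- replicate 3, 18 without hC4A/- replicate 5, 16 and 15 without hC4B/- replicates 2 and 3, 80 and 91 without hC4A/A replicates 1 and 2). In each of the other 9 comparisons 0 genes passed. DESeq2 there called 18 in C4-/- against WT, 36 in hC4A/- against WT, 57 in hC4B/- against WT and 2 in hC4A/A against WT, then 16 for hC4A/-, 2 for hC4B/- and 1 for hC4A/A, each against C4-/-, 86 in hC4A/- against hC4B/- and 2 in hC4A/A against hC4A/-. With no count filter these were 26, 65, 28, 3, 53, 16, 0, 36 and 0 in the same order. The other settings gave 0 to 8. Fits on the compared groups alone gave no other value for the pooled comparison, which uses all groups, and where 1 hC4A/A library was left it was taken to vary like the other groups. Depth limits Nfkb2 most, at 114 counts in all 20 libraries together, and Tnfaip3, Nfkbie, Nfkbiz, Relb, Nfkbid and Rela were also at 1 count or none in some libraries.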
